A study of Homo sapiens with 13 samples.

Results

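The genes described here encode proteins that join the presynaptic and postsynaptic sides of a synapse. They are 4 leucine-rich repeat transmembrane genes (*LRRTM1*, *LRRTM2*, *LRRTM3* and *LRRTM4*), the neurexin genes *NRXN2* and *NRXN3*, the neuroligin genes *NLGN1* and *NLGN2*, and *CBLN1*, which encodes the secreted adaptor cerebellin 1. These 9 genes were matched by symbol among the 56831 genes of the series, and all 9 were found. *LRRTM1* was chosen by its value in these data, as the largest rise in treated H146 cells, so its levels in H146 are given as a description with no test.

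RNA was sequenced from H82 and H146, established cell lines of small cell lung cancer (SCLC) whose genotype is labelled WT. For each line there were 3 untreated libraries (n1 to n3). The treated cells had received FHD-286, an allosteric inhibitor of the SMARCA2 and SMARCA4 ATPases of the SWI/SNF chromatin remodelling complex, at 100 nM for 14 days, with 3 libraries of H82 and 4 of H146. No label says whether the libraries of a group came from separate cultures, or whether untreated cells received a vehicle, so *p* values measure the spread between these libraries only.

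Neurexins sit on the presynaptic membrane and bind neuroligins and LRRTM proteins across the cleft. Cerebellin 1 is secreted and links neurexins to glutamate delta receptors. Neuroligin 1 and the LRRTM proteins are best known from excitatory synapses, and neuroligin 2 from inhibitory ones. High-NE (neuroendocrine) SCLC cells express many neuronal genes, and the study asked which of them depend on SMARCA4.

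Values are TPM, in which reads are divided by gene length and every library is brought to one common total. Differences between groups are of mean log2(TPM + 1), which understates the change of a gene near 0. Genes at 1 TPM or more in at least 3 libraries of a line were tested with limma, and a gene is called higher or lower at an adjusted *p* under 0.05. Members under this filter were compared by an exact permutation test, whose smallest two-sided *p* is 0.1 in H82 and 0.0571 in H146. In bulk RNA, fewer cells of a type and less RNA per cell cannot be told apart.

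Between 21227 and 21772 genes reached 1 TPM in untreated H82 libraries and 15554 to 16633 in treated ones. The range in H146 was 17476 to 17965 without treatment and 18778 to 19309 with it. The median log2 difference over all tested genes was -0.56 (H82) and 0.25 (H146), and member values are also given relative to it. *SYP*, *CHGA*, *NCAM1*, *INSM1*, *UCHL1* and *ENO2* were detected in all 13 libraries, the lowest value being 12.5 TPM. In H82 *SYP* was at 192.6 TPM or more untreated and at 58.1 TPM or less treated. *CHGA* (113.7 and 62.5 TPM) and *ENO2* (170.4 and 88.0 TPM) were likewise lower there. *INSM1* and *UCHL1* were higher in treated H82 and, like *ENO2*, lower in treated H146, and the other groups of these genes overlapped. Of low-NE genes, *VIM* and *YAP1* were higher in both lines with treatment, and *REST* in H146. *CD44* was higher in treated H82 and lower in treated H146. *NEUROD1* was lower in treated H82, at 223.6 TPM or more untreated and 48.1 to 111.6 TPM treated. It was at 0.521 TPM or less in every H146 library. Among markers of cells that the cultures should not hold, *PECAM1* and *GFAP* were at 0.525 TPM or less throughout, *PTPRC* at 3.29 to 6.75 TPM in H146 and 0.402 TPM or less in H82, *COL1A1* at 0.141 to 16.7 TPM and *COL1A2* at 0.172 to 11.8 TPM.

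Treated H82 replicate 2 stood apart. A set of 57 genes, chosen after their values were seen, was at 20 TPM or more in every H146 library and under 0.1 TPM in every untreated H82 library. In treated H82 replicate 2, 31 of the 57 reached 1 TPM, against 12 and 9 in treated replicates 1 and 3. Their summed level was 61, 345.5 and 25.1 TPM in treated replicates 1, 2 and 3, and 0.715 to 0.836 TPM without treatment. As a percentage of the mean of treated H146, the median gene of the set was at 0.425, 2.64 and 0.189 in the 3 treated libraries. The part of this difference in the results below was not tested beyond leaving out the library.

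The RefSeq promoter table (GRCh38.p14) held 6 of the 9 members, and *LRRTM4*, *NRXN2* and *CBLN1* had no match. The 250 bases upstream of the start site are shown for *LRRTM1*, *LRRTM3* and *NLGN1*, the members with the highest log2 differences in H146, each written along the strand of its gene. Capitals mark CANNTG (the E-box, the general motif of basic helix-loop-helix factors such as NEUROD1). *LRRTM1* lies on the minus strand at chr2:80304753-80305002, *LRRTM3* on the plus strand at chr10:66925786-66926035 (the outer of its starts), and *NLGN1* on the plus strand with starts at chr3:173395702-173395951 and chr3:173397494-173397743.
LRRTM1: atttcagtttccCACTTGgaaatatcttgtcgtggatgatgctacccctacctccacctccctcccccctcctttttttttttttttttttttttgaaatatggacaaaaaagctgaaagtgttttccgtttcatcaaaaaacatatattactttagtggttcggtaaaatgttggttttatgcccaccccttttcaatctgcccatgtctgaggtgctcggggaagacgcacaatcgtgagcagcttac
LRRTM3: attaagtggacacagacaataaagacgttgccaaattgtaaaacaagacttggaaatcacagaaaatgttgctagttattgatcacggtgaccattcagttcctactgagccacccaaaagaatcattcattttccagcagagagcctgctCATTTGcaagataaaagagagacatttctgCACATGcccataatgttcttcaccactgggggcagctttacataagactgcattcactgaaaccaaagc
NLGN1 first start: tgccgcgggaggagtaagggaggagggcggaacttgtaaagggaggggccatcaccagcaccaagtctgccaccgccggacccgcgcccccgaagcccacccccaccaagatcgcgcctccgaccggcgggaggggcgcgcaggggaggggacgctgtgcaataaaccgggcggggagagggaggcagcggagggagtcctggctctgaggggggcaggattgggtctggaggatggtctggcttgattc
NLGN1 second start: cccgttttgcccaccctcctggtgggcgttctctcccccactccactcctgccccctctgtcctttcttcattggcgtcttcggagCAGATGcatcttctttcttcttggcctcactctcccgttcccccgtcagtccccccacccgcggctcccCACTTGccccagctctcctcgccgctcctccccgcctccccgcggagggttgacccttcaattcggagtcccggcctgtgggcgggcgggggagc
An E-box began at base -238 from the start site of *LRRTM1*, at -99 and -69 for *LRRTM3* and at -164 and -95 for the second start of *NLGN1*. No E-box was found in the window of the first start of *NLGN1*, nor in that of the other *LRRTM3* start (chr10:67012016-67012265), which is not shown. CANNTG occurs in 61.8% of the 35116 promoter windows of this length, so a match is common. The *NLGN1* match at -164 is CAGATG, a subset of CANNTG that is in 12.2% of windows. CAGCTG (14% of windows), TGANTCA (6.57%) and GGAATG (11.9%), searched on both strands, were not found in these 4 windows.

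The *LRRTM1* window held 40.8% G and C, at percentile 14.1 of all windows, and that of *LRRTM3* held the same. The *NLGN1* windows held 69.2% and 67.2%, against a median of 58% over all windows. The windows shown are therefore of unlike base composition.

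In H146, *LRRTM1* went from under 1 TPM to one of the more abundant members. *LRRTM1* (ENSG00000162951.11, chromosome 2, 80288351 to 80304752 in hg38) encodes a postsynaptic membrane protein that binds neurexins. It was at 0.383, 0.666 and 0.537 TPM in the untreated libraries and at 149, 109, 84.0 and 82.8 TPM in the treated ones. The groups did not overlap, and every treated library was far above every untreated one. The means were 0.528 ± 0.142 and 106 ± 31.0 TPM (SD, n = 3 and 4), a ratio of 201 and a log2 difference of 6.09. The next 2 genes by rise in treated H146 were *CALB2* (5.75) and *TXNIP* (4.64).

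No such level of *LRRTM1* was seen in H82. The untreated libraries were at 0.722, 0.771 and 0.933 TPM and the treated ones at 0.545, 1.71 and 1.04 TPM. The groups overlapped, and the highest value was that of replicate 2 (log2 difference 0.18, exact permutation test, two-sided *p* = 0.6, n = 3 and 3). That library held *LRRTM1* at 1.61% of the mean of treated H146.

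*LRRTM2* (ENSG00000146006.8, chromosome 5, 138868921 to 138875368), whose protein is a neurexin ligand of excitatory synapses, went the other way in H82. It was at 1.32, 1.32 and 1.08 TPM without treatment and at 0.0784, 0.137 and 0.0628 TPM with it, with no overlap. The log2 difference was -1.03 (standard error 0.17, limma adjusted *p* = 0.00205), or -0.48 relative to the median of all genes. The gene passed the filter only through its untreated libraries, so it could enter the test only by being high there. With no filter on level the limma adjusted *p* was 0.00503, and under quantile normalization the difference turned to 0.16 and was no longer called. The H146 libraries were at 0.0633, 0.0787 and 0.0716 TPM without treatment and at 0.433, 0.192, 0.158 and 0.164 TPM with it. All treated libraries were above the untreated ones at this low level, with replicate 1 the highest (exact permutation test, *p* = 0.0571, the smallest possible, n = 3 and 4).

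*LRRTM3* (ENSG00000198739.11, chromosome 10, 66926036 to 67101551), another neurexin-binding LRRTM protein, rose in H146. The untreated libraries were at 0.0623, 0.0413 and 0 TPM and the treated ones at 1.09, 0.595, 1.36 and 1.29 TPM, so the groups did not overlap. The log2 difference was 0.99 (standard error 0.20, limma adjusted *p* = 0.00411), or 0.75 relative to the median of all genes. It passed the filter only through its treated libraries, and with no filter on level the limma adjusted *p* was 0.00534. In H82 the range was 0 to 0.371 TPM without treatment and 0.0895 to 0.192 TPM with it, with overlap (exact permutation test, *p* = 1, n = 3 and 3).

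*LRRTM4* (ENSG00000176204.14, chromosome 2, 76747685 to 77593319), which binds heparan sulfate on glypicans and neurexins, stayed under 1 TPM in all 13 libraries. It was at 0.375 to 0.603 TPM in untreated and 0.204 to 0.630 TPM in treated H146 (exact permutation test, *p* = 0.8, n = 3 and 4). In H82 it was listed at 0 in every untreated library and in treated replicate 3, and at 0.0883 and 0.0770 TPM in treated replicates 1 and 2 (exact permutation test, *p* = 0.4, n = 3 and 3). Summed over the 4 genes, LRRTM RNA in H146 was at 0.883 to 1.39 TPM without treatment and 84.5 to 151 TPM with it. *LRRTM1* made up 97.9% to 98.7% of the treated sum, and 43.3% to 53.0% of the untreated one.

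**Figure D1:**
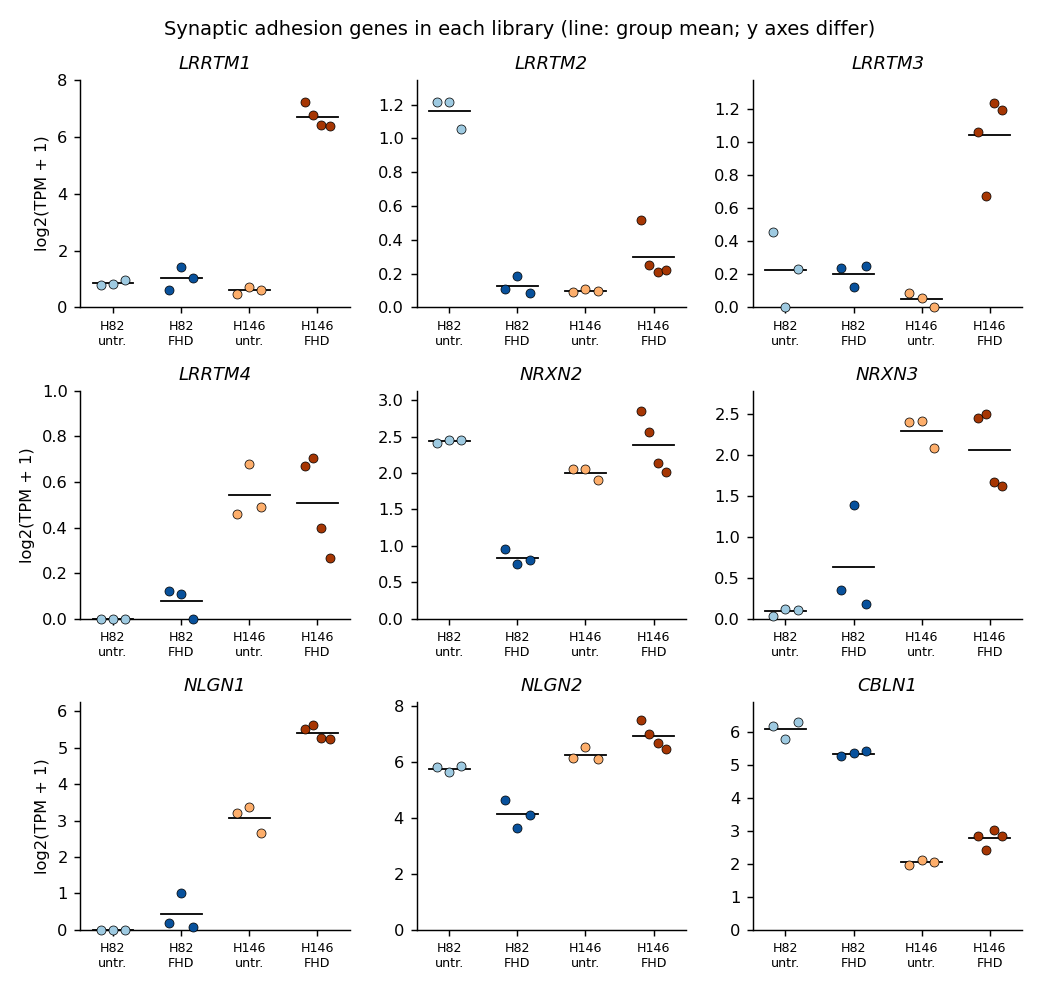
Level of the 9 genes in each library, as log2(TPM + 1) on the y axis (scales differ between panels), for untreated (untr.) and FHD-286-treated (FHD) H82 and H146; points are libraries and lines are group means. *LRRTM1*, *LRRTM2*, *LRRTM3*, *NLGN1* and *CBLN1* are higher in all 4 treated H146 libraries than in any untreated one. *LRRTM2*, *NRXN2*, *NLGN2* and *CBLN1* are lower in all 3 treated H82 libraries than in any untreated one. *NRXN3* and *NLGN1* are higher in all 3 treated H82 libraries than in any untreated one, at 1.61 TPM or less.

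The first 3 LRRTM genes lie within alpha-catenin genes on the opposite strand, *LRRTM1* in *CTNNA2*, *LRRTM2* in *CTNNA1* and *LRRTM3* in *CTNNA3*. Alpha-catenins link cadherins to actin. In GENCODE release 44, *LRRTM1* shared 0 exon bases with *CTNNA2*, *LRRTM2* shared 445 with *CTNNA1* (7.3% of its exon bases) and *LRRTM3* shared 177 with *CTNNA3* (2.79%). The study counted reads on an earlier GENCODE release, so the shared bases behind the TPM may differ from these. The sources do not say that reads were counted by strand, so reads from the shared bases cannot be assigned to either gene.

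*CTNNA2* fell in H146, opposite in direction to *LRRTM1* within it. It was at 45.7, 42.1 and 39.8 TPM without treatment and at 24.3, 34.1, 23.7 and 25.7 TPM with it. The groups did not overlap (log2 difference -0.65, standard error 0.15, limma adjusted *p* = 0.00803). In H82 its mean was 2.93 ± 0.252 TPM untreated and 0.867 ± 0.571 TPM treated (SD, n = 3 and 3), a log2 difference of -1.11 (limma adjusted *p* = 0.00843) that was -0.02 and no longer called under quantile normalization.

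*CTNNA1* did not pass the threshold in either line. Its means in H82 were 84.0 ± 3.28 TPM untreated and 98.1 ± 1.39 TPM treated (SD, n = 3 and 3, log2 difference 0.22, limma adjusted *p* = 0.147). In H146 they were 177 ± 16.8 and 151 ± 19.98 TPM (SD, n = 3 and 4, log2 difference -0.23, limma adjusted *p* = 0.177). Both were called with the median of ratios, at 0.71 in H82 and -0.55 in H146. *CTNNA3* was at 0.261 TPM or less in all libraries, below *LRRTM3* in each treated H146 library.

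**Figure D2:**
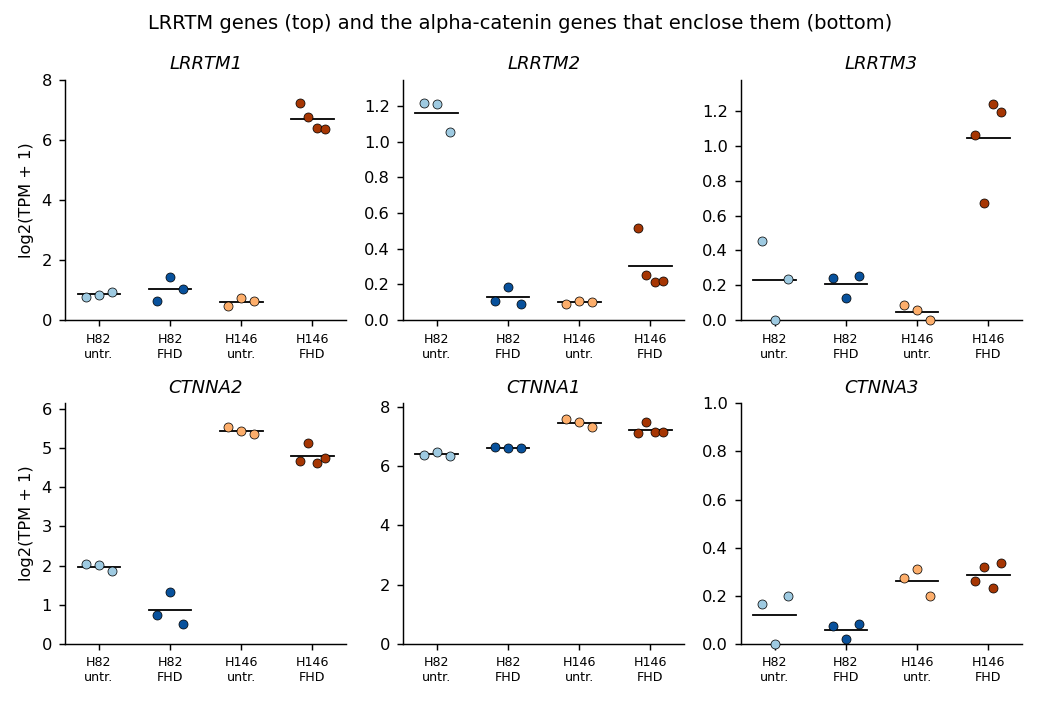
Levels of *LRRTM1*, *LRRTM2* and *LRRTM3* (top) and of the alpha-catenin genes that enclose them (bottom), as log2(TPM + 1) per library in untreated (untr.) and FHD-286-treated (FHD) H82 and H146, with lines at group means. In H146 *LRRTM1* goes from a mean of 0.528 to 106 TPM while *CTNNA2* goes from 42.6 to 26.9 TPM.

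On the presynaptic side, *NRXN2* fell in H82. *NRXN2* (ENSG00000110076.21, chromosome 11, 64606174 to 64723197) was at 4.31, 4.46 and 4.49 TPM without treatment and at 0.937, 0.682 and 0.747 TPM with it. The groups were far apart, with a log2 difference of -1.60 (standard error 0.18, limma adjusted *p* = 0.000488), or -1.04 relative to the median of all genes. Since it reached 1 TPM in untreated libraries only, it passed the filter through that group, and with no filter the limma adjusted *p* was 0.00319. Under quantile normalization the difference shrank to -0.53 (limma adjusted *p* = 0.0418). In H146 the untreated libraries were at 3.18, 3.15 and 2.73 TPM and the treated ones at 6.20, 4.92, 3.39 and 3.05 TPM. Treated replicate 4 lay within the untreated range, and the log2 difference of 0.39 missed the threshold (limma adjusted *p* = 0.191, standard error 0.23). *NRXN2* shares 289 exon bases (2.06% of its own) with the antisense gene *NRXN2-AS1*.

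*NRXN3* (ENSG00000021645.20, chromosome 14, 78170373 to 79868291), the other neurexin gene of the set, was mainly an H146 gene. In H146 it was at 4.27, 4.32 and 3.24 TPM without treatment and at 4.48, 4.67, 2.19 and 2.07 TPM with it. Treated replicates 1 and 2 lay above all untreated libraries and replicates 3 and 4 below them, so the mean difference of -0.24 hides a split within the treated group (standard error 0.27, limma adjusted *p* = 0.499). Replicates 1 and 2 were also above 3 and 4 for *LRRTM1*, *LRRTM2*, *LRRTM4*, *NRXN2*, *NLGN1* and *NLGN2*. *CBLN1* did not follow this order, and *LRRTM3* was higher in replicates 3 and 4. What separates these libraries was not tested. In H82 *NRXN3* was at 0.0247, 0.0835 and 0.0791 TPM without treatment and at 0.269, 1.61 and 0.131 TPM with it. The groups did not overlap (exact permutation test, *p* = 0.1, the smallest possible, n = 3 and 3), and replicate 2, the library that stood apart, held most of the RNA.

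Of the neuroligins, *NLGN1* gave the largest tested rise among the members. *NLGN1* (ENSG00000169760.18, chromosome 3, 173396284 to 174294372) encodes the postsynaptic partner of neurexins at excitatory synapses. In H146 it was at 8.16, 9.44 and 5.35 TPM without treatment and at 44.8, 48.2, 37.2 and 36.5 TPM with it. The means of 7.65 ± 2.09 and 41.7 ± 5.77 TPM (SD, n = 3 and 4) differed by 2.32 on the log2 scale (standard error 0.20, limma adjusted *p* = 7.44e-05), or 2.08 relative to the median of all genes.

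In untreated H82 *NLGN1* was listed at 0 in all 3 libraries. The treated libraries were at 0.141, 1.03 and 0.0628 TPM, so it was low in all and highest in replicate 2 (exact permutation test, *p* = 0.1, the smallest possible, n = 3 and 3). The value in replicate 2 was 2.46% of the mean of treated H146, beside 2.64% for the median gene of the 57-gene set in that library. The other treated libraries were at 0.339% and 0.151%, against 0.425% and 0.189% for the set. The set was widely spread, with quartiles of 0.322% and 8.24% in replicate 2. They were 0.116% and 1.44% in replicate 1, and 0% and 0.692% in replicate 3. The origin of the *NLGN1* RNA in treated H82 was not tested.

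*NLGN2* (ENSG00000169992.10, chromosome 17, 7404874 to 7419860), the neuroligin of inhibitory synapses, was abundant in both lines and fell in H82. There it was at 55.5, 48.7 and 56.6 TPM without treatment and at 23.9, 11.4 and 16.4 TPM with it. The groups did not overlap (log2 difference -1.64, standard error 0.26, limma adjusted *p* = 0.00169, -1.08 relative to the median of all genes). The H146 libraries were at 69.0, 92.0 and 68.9 TPM without treatment and at 179, 129, 102 and 87.1 TPM with it. Treated replicate 4 lay below untreated replicate 2, and the log2 difference of 0.65 missed the threshold (standard error 0.24, limma adjusted *p* = 0.0523). Without treated replicate 4 it was 0.80 and was called (limma adjusted *p* = 0.0215). *NLGN1* made up 7.21% to 10.6% of the summed TPM of the 2 neuroligins in the untreated H146 libraries and 19.98% to 29.5% in the treated ones.

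*CBLN1* (ENSG00000102924.13, chromosome 16, 49277917 to 49281838) fell in H82 and rose in H146. In H82 it was at 71.6, 54.6 and 78.5 TPM without treatment and at 37.7, 40.3 and 41.9 TPM with it. The groups did not overlap (log2 difference -0.74, standard error 0.17, limma adjusted *p* = 0.00802). Relative to the median of all genes the difference was -0.18, and with the median of ratios it became -0.26 and no longer called (limma adjusted *p* = 0.214). The H146 libraries were at 2.94, 3.33 and 3.13 TPM without treatment and at 6.23, 4.39, 7.11 and 6.17 TPM with it. All treated libraries were above the untreated ones, with a log2 difference of 0.74 (standard error 0.18, limma adjusted *p* = 0.0104) that was 0.47 and no longer called under quantile normalization (limma adjusted *p* = 0.0537).

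In H82, 4 of the 9 members passed the filter, and these 4 were lower (*LRRTM2*, *NRXN2*, *NLGN2* and *CBLN1*), with *LRRTM2* reversed under quantile normalization. Among all 19770 tested genes 45.5% were lower and 13.1% higher. *LRRTM2* and *NRXN2* passed only through the group where they were high, which leaves *NLGN2* and *CBLN1* as members whose entry to the test did not depend on 1 group. Their count is therefore not read against these shares. The other 5 members were too low to be tested with the rest.

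In H146, 6 of the 8 members other than *LRRTM1* passed the filter. Of these, 3 were higher (*LRRTM3*, *NLGN1* and *CBLN1*) and 0 were lower, against 32.5% higher and 15.5% lower among all 19585 tested genes. *LRRTM3* passed only through its treated libraries, so *NLGN1* and *CBLN1* are the higher members whose entry to the test did not depend on 1 group. None of the 8 was lower in H146 at an adjusted *p* under 0.05 in any alternative setting run.

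**Figure D3:**
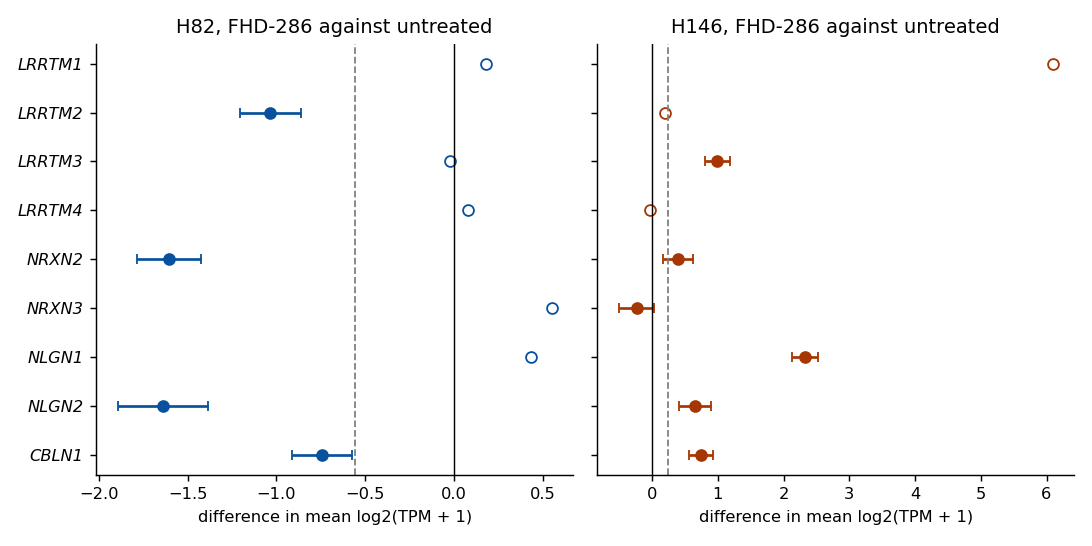
Difference in mean log2(TPM + 1), treated minus untreated, for each gene in H82 (left) and H146 (right). Filled points with bars are limma estimates ± standard error, open points are genes under the filter and *LRRTM1* in H146, which are shown with no error, and dashed lines mark the median of all tested genes (-0.56 and 0.25); the 4 filled points of H82 lie left of 0, and 5 of the 6 filled points of H146 lie right of it.

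The order of the levels, which TPM gives per length, also differed between the lines. In untreated H82 *CBLN1* (mean 68.2 TPM) and *NLGN2* (53.6 TPM) led, with overlapping ranges, followed by *NRXN2* (4.42 TPM) and *LRRTM2* (1.24 TPM). In untreated H146 *NLGN2* led (76.6 TPM), followed by *NLGN1* (7.65 TPM), while *NRXN3*, *CBLN1* and *NRXN2* lay between 2.73 and 4.32 TPM, each overlapping its neighbour. In treated H146 *NLGN2* (124 TPM) and *LRRTM1* (106 TPM) led with overlapping ranges, above *NLGN1* (41.7 TPM). In treated H82 *CBLN1* (40.0 TPM) and *NLGN2* (17.2 TPM) still led, and the ranges of the other 7 members ran into each other between 0 and 1.71 TPM. *CBLN1* in treated H82 was at 631% to 702% of its mean in treated H146. The tables of the lines were made separately, so these levels are set side by side with no test.

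The response differed between the lines for most members. The difference itself was tested by a line-by-treatment interaction over 13 libraries, where 46.5% of 23676 genes were called with a higher difference in H146 and the median over all genes was 0.73. Of the 7 members tested besides *LRRTM1*, 6 were called in that direction. The values, H146 minus H82 on the log2 scale, were 2.29 for *NLGN2* (standard error 0.38, limma adjusted *p* = 0.000244), 1.99 for *NRXN2* (0.29, 0.000102), 1.89 for *NLGN1* (0.35, 0.000615) and 1.48 for *CBLN1* (0.24, 0.000207). For *LRRTM2* the value was 1.24 (0.17, 6.49e-05) and for *LRRTM3* 1.02 (0.23, 0.0021), and each of these 2 passed the filter only through the 1 group where it was high. *NRXN3* was not past the threshold, at -0.78 (standard error 0.44, limma adjusted *p* = 0.144). Under quantile normalization *LRRTM2* (0.40) and *LRRTM3* (0.38) were no longer called, *NRXN3* was called lower (-1.49) and *NRXN2* shrank to 0.76 (limma adjusted *p* = 0.0313). With a pseudocount of 0.1 *NLGN1* was at 0.64 and no longer called.

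Treated H82 replicate 2 was compared with H146 gene by gene. As a percentage of the mean of treated H146, that library was at 48% for *NRXN3*, against 8.03% and 3.92% in treated replicates 1 and 3. It was not the highest of the 3 treated libraries for *NRXN2* (15.5%), *NLGN2* (9.19%), *LRRTM3* (8.26%), *LRRTM4* (17.7%) or *CBLN1* (674%). *INSM1*, *FOXA2* and *EPCAM*, all far higher in H146 than in untreated H82, were at 34%, 9.14% and 10.1% in replicate 2. They were at 0.276% to 3.9% in the other treated libraries. *FOXA2* meets the rule of the 57-gene set, so its value is not separate from that set. Without replicate 2, the same number of members, 4, was lower in H82. *LRRTM2*, one of these 4, was highest in replicate 2 among the treated libraries (0.137 TPM, against 0.0784 and 0.0628 TPM). Its log2 difference in H82 was -1.06 without replicate 2. *LRRTM1*, *NRXN3* and *NLGN1*, also highest in replicate 2, are not among these 4. Without that library their log2 differences in H82 went from 0.18 to -0.03, from 0.55 to 0.17 and from 0.43 to 0.14.

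**Figure D4:**
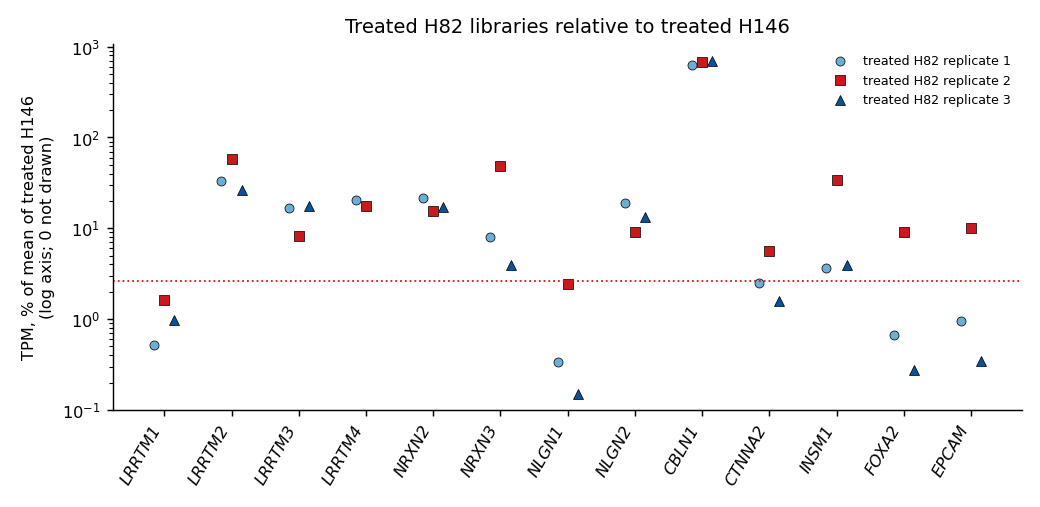
TPM of each treated H82 library as a percentage of the mean of the 4 treated H146 libraries, on a log axis, for the 9 genes and for *CTNNA2*, *INSM1*, *FOXA2* and *EPCAM*; a value of 0 is not drawn, and the dotted line is the median of the 57-gene set in replicate 2 (2.64%). Replicate 2 (squares) is above replicates 1 and 3 for *LRRTM1*, *LRRTM2*, *NRXN3*, *NLGN1* and the 4 other genes, and below them for *NRXN2*, *NLGN2* and *LRRTM3*.

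Partner genes were taken from 7 lists of synaptic adhesion and scaffold genes. Of 78 genes listed, 77 were matched, and *TENM4* was not analysed here. In H82, 45 were tested, with 20 lower (44.4%) and 5 higher (11.1%), beside the 45.5% and 13.1% of all genes. With the median of ratios the counts were 11 lower and 9 higher, where 32.9% and 24.2% of all genes were called. With quantile normalization they were 13 and 13, where the shares of all genes were 24.6% and 26.6%. In H146, 63 were tested, with 37 higher (58.7%) and 11 lower (17.5%), beside 32.5% and 15.5% of all genes, and the median difference was 0.66 against 0.25. The median of ratios gave 28 higher and 15 lower there, where 21.3% of all genes were higher and 25.1% lower. Of the called partner genes, 1 lower and 2 higher in H82 and 1 lower and 9 higher in H146 passed the filter only through the group where they were high.

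Of the neuroligin genes *NLGN3* and *NLGN4X*, *NLGN3* alone was tested in H82 and was lower there. Its means were 7.10 ± 0.773 TPM untreated and 1.35 ± 0.511 TPM treated (SD, n = 3 and 3, log2 difference -1.81, limma adjusted *p* = 0.000834). In H146 both were higher, *NLGN3* having passed the filter only through its treated libraries, and *NLGN4X*, an X-linked neuroligin, had the largest difference, with means of 8.27 ± 2.61 and 17.1 ± 3.77 TPM (SD, n = 3 and 4, log2 difference 0.98, limma adjusted *p* = 0.0107).

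Among 20 secreted adaptors, other neurexin ligands and glutamate delta receptors, 11 were tested in H82 (4 lower, 1 higher) and 18 in H146 (4 lower, 10 higher). *NXPH4*, which encodes the neurexin ligand neurexophilin 4, had means of 189.9 ± 8.31 TPM in untreated and 21.7 ± 9.10 TPM in treated H146 (SD, n = 3 and 4, log2 difference -3.16, limma adjusted *p* = 0.000111). The largest rise in H146 was that of *DAG1*, which encodes dystroglycan (log2 difference 1.86, limma adjusted *p* = 0.000154). In H82 *NXPH4* had a log2 difference of -1.43 (limma adjusted *p* = 0.0415), and *C1QL1*, which encodes a secreted C1q-like protein, one of 1.66 (limma adjusted *p* = 0.0423). Treated *C1QL1* ranged from 55.5 to 320 TPM, the highest being replicate 2, without which the difference was 0.99 (limma adjusted *p* = 0.0486). Both of these H82 calls were lost when any of the untreated libraries was left out. Over all alternatives, the *NXPH4* call in H82 was lost in 9 of 12 and the *C1QL1* call in 5 of 12.

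Of 8 neuroligin inhibitors and cytosolic partners of neurexin, 6 were tested in each line, with 1 lower and 2 higher in H82 and 0 lower and 3 higher in H146. In H82 the related genes *LIN7A* and *LIN7C*, whose proteins bind CASK, moved apart. The means of *LIN7A* were 4.27 ± 0.221 and 17.4 ± 0.990 TPM and those of *LIN7C* 55.1 ± 12.8 and 21.9 ± 1.85 TPM, untreated and treated (SD, n = 3 and 3, log2 differences 1.80 and -1.27, limma adjusted *p* = 0.000234 and 0.00138). *CASK*, a kinase-like scaffold that binds the neurexin tail, had the largest rise of this list in H146 (log2 difference 1.10, limma adjusted *p* = 0.00133).

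Of 11 postsynaptic scaffold genes, 7 were tested in H82 (3 lower, 1 higher) and 8 in H146 (2 lower, 4 higher). *DLG4*, which encodes PSD-95, the scaffold that binds neuroligin 1, fell in H82 to a mean of 26.2 ± 9.36 TPM, against 121.5 ± 10.7 TPM without treatment (SD, n = 3 and 3, log2 difference -2.23, limma adjusted *p* = 0.000483). In H146 it had a log2 difference of -1.08 (limma adjusted *p* = 0.0476), and this call was lost in 10 of 13 alternatives. *HOMER1*, which encodes a scaffold that ties glutamate receptors to Shank proteins, had means of 7.66 ± 2.00 TPM in untreated and 34.0 ± 5.23 TPM in treated H146 (SD, n = 3 and 4, log2 difference 2.03, limma adjusted *p* = 0.000139). *SHANK3*, which encodes one of those proteins, was the 1 scaffold gene that rose in H82 (0.229 to 1.70 TPM, log2 difference 1.14, limma adjusted *p* = 0.0018), and it passed the filter only through its treated libraries.

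The list of other leucine-rich repeat organizers and their receptors held 28 genes. In H82, 14 were tested, with 8 lower and 0 higher. The largest fall was that of *NTNG2*, which encodes netrin-G2, a membrane-anchored ligand of leucine-rich repeat proteins (37.1 ± 3.68 to 2.73 ± 1.26 TPM, SD, n = 3 and 3, log2 difference -3.40, limma adjusted *p* = 0.000155). In H146, 22 were tested, with 16 higher and 4 lower. *SLITRK3*, whose protein organizes inhibitory synapses, had means of 1.68 ± 0.563 and 17.0 ± 5.14 TPM (log2 difference 2.71, limma adjusted *p* = 0.000185, n = 3 and 4), and *TENM2*, a teneurin that binds latrophilins, means of 12.96 ± 4.57 and 1.02 ± 0.337 TPM (log2 difference -2.75, limma adjusted *p* = 0.000106).

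Of 6 glypican genes, which encode heparan sulfate proteoglycans, 4 were tested in H82 (2 lower, 1 higher) and 5 in H146 (0 lower, 2 higher). *GPC3* was the largest rise of the list in both lines, with means of 3.63 ± 1.27 and 28.3 ± 6.45 TPM in H82 (SD, n = 3 and 3, log2 difference 2.68, limma adjusted *p* = 0.00035) and of 0.635 ± 0.169 and 3.18 ± 1.83 TPM in H146 (SD, n = 3 and 4, log2 difference 1.25, limma adjusted *p* = 0.015). In H146 it passed the filter only through its treated libraries, and the call was lost without untreated replicate 3. *GPC2* fell in H82 (60.7 ± 7.15 to 28.4 ± 12.1 TPM, SD, n = 3 and 3, log2 difference -1.15, limma adjusted *p* = 0.013), a call that was lost with the median of ratios. Of the alpha-catenin genes 2 were tested in each line, and *CTNNA2* was lower in both.

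**Figure D5:**
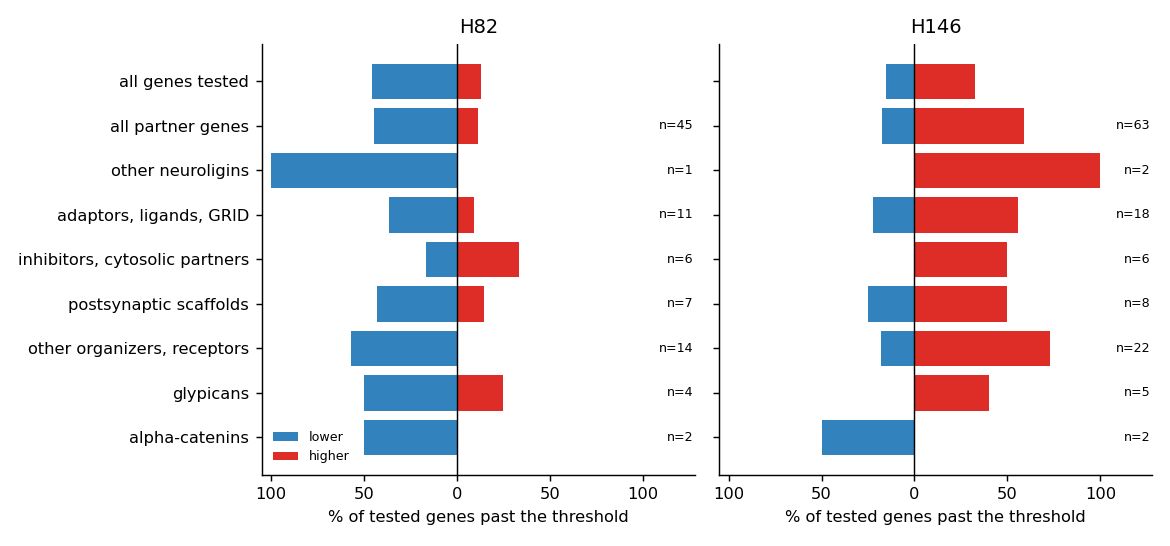
Percentage of tested genes called lower (left of 0) or higher (right of 0) at an adjusted *p* under 0.05 in treated H82 and H146, for all genes tested, all partner genes and each of the 7 lists, with the number tested as n. In H146 58.7% of the partner genes were higher, against 32.5% of all genes, and in H82 44.4% were lower, against 45.5% of all genes.

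The genes whose log2(TPM + 1) was most like that of *LRRTM1* over the 13 libraries were taken from 24371 genes at 1 TPM or more in at least 3 of them. The 5 with the highest Pearson correlation were *MIR100HG* (0.994), *CTD-2533K21.4* (0.993), *OR52E2* (0.992), *RP11-4L24.4* (0.989) and *TSPAN12* (0.986). The libraries share lines and treatment, and the 4 treated H146 libraries set these values. *TSPAN12*, which encodes a membrane protein of the tetraspanin family, was the most abundant of the 5, at 223 to 272 TPM in treated H146 against 17.8 to 33.8 TPM in the other libraries. Ranked by Spearman correlation, the top 5 shared 0 genes with these. Among the members, *LRRTM3* (0.91, rank 263) and *NLGN1* (0.84, rank 879) were closest to *LRRTM1*, and *LRRTM2* (-0.16) and *CBLN1* (-0.43) farthest. These correlations pool both lines, and the last 2 genes had their highest group means in untreated H82 (1.24 and 68.2 TPM). Within H146 both were, like *LRRTM1*, higher in all 4 treated libraries than in any untreated one.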

How the data were processed

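RNA of 13 libraries was analysed. Per the study's methods, the authors used STAR and a GENCODE annotation to map and count reads on hg38, and they deposited TPM (transcripts per 1000000) in 1 table per cell line. Each column sums to 1000000. Reads per library are not in TPM, so counting error cannot be given and the spread between libraries sets the precision. Gene length and strand settings are not given in the sources used here.

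Each line was fitted with limma 3.58.1 in R 4.3.3 (lmFit, eBayes with trend) on log2(TPM + 1), treated against untreated, over genes at 1 TPM or more in at least 3 libraries, with two-sided *p* values adjusted over every tested gene (Benjamini-Hochberg). The interaction was fitted over all 13 libraries. Fits without a library kept the genes of the full fit. The pipeline was tested on simulated data. Python 3.11.15 with scipy 1.17.1 gave exact permutation tests. Coordinates are from GENCODE 44, a later release than the one the authors counted on, and promoters are from RefSeq.

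The members and lists were chosen with earlier results of these data known. Results for 1 listed gene are not reported here. Named genes are the members, the enclosing alpha-catenin genes, the largest rise and fall past the threshold without overlap in each list and line, and the 5 genes most correlated with *LRRTM1*. Alternative settings used no filter, a pseudocount of 0.1, the median of ratios, quantile normalization, no trend, a replicate block, Spearman correlation and each library left out.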

Additional observations from a re-analysis of the deposited data

Results flagged for a closer look

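In treated H146, *LRRTM2* in replicate 1 (0.433 TPM) stood apart from the other 3 libraries (0.158 to 0.192 TPM), with a gap of 0.877 of the range of the group. Such a gap arises by chance in about 1 of 20 groups, and the group was looked at for each of the 9 members.

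The response to FHD-286 differed between the lines by the interaction test for 6 members, with a higher difference in H146. In that direction 46.5% of all 23676 tested genes were called. *LRRTM2* and *LRRTM3* passed the filter only through the group where each was high. Relative to the median of all genes their differences were 0.50 and 0.29. The differences in log2 change, H146 minus H82, were 1.24 for *LRRTM2*, 1.02 for *LRRTM3*, 1.99 for *NRXN2*, 1.89 for *NLGN1*, 2.29 for *NLGN2* and 1.48 for *CBLN1*, beside a median of 0.73 over all genes.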

How the results depend on the processing

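Of 546 tested values recomputed under an alternative, 505 kept their direction and their side of the threshold, and of 214 untested values and counts 17 moved. Counts of partner genes in H82 moved with the scaling, as those of all genes did, to 11 lower and 9 higher by the median of ratios and 13 lower and 13 higher by quantile normalization. With each library left out, 4 to 11 partner genes were higher in H82, the 11 being without treated replicate 1. Under quantile normalization, *LRRTM2* in H82 reversed to 0.16, and 1 member was called lower in the interaction. Spearman correlation left 0 of the 5 genes most like *LRRTM1*. The causes were not tested.

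The replicate numbers did not pair the libraries (correlation of same-numbered deviations -0.141 to 0.027, and 2 of 6 libraries closest to their own number). With the replicate block, 4 members were lower in H82 and 3 were higher in H146, where *CBLN1* was lost (0.72, limma adjusted *p* = 0.0568) and *NLGN2* gained (0.80, limma adjusted *p* = 0.0225). Treated H146 replicate 4 has no untreated library of its number. The differences of 0.72 and 0.80 are those found with that library left out.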
